A study of Mus musculus with 58 samples.

Results

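Liver RNA was compared between mice given a low dose of tetrachloroethylene (PCE), 0.22 or 0.67 mmol/kg, and mice given vehicle alone. Libraries were chosen by their labels, tissue liver, chemical PCE and dose 0, 0.22 or 0.67 mmol/kg, which gives 8 of the 58 libraries of the series. The vehicle group has 3 libraries, the 0.22 mmol/kg group (30 mg/kg) has 3 and the 0.67 mmol/kg group (100 mg/kg) has 2. By the protocol all animals were male B6C3F1/J mice 5 to 6 weeks old when obtained, although a strain label reads C57BL/6. Each received 1 intragastric dose in the morning, and every group, controls included, received the vehicle of 5% Alkamuls El-620 in saline at 5 mL/kg. The labels and notes at hand do not state when after dosing the livers were taken. The liver libraries of the series also cover PCE at 2 and 6 mmol/kg and the related solvent trichloroethylene (TCE) at the same molar doses with its own vehicle group, all from the same protocol, and these are used where a comparison needs them.

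PCE is a chlorinated solvent used in dry cleaning. Liver oxidizes part of it through cytochrome P450 enzymes to trichloroacetic acid, an activator of the nuclear receptor PPARa in rodents, and conjugates another part with glutathione. PPARa is a sensor of fatty acids whose target genes carry out peroxisomal and mitochondrial fatty acid oxidation. Hepatocytes also respond to inflammation by making acute phase proteins, which are secreted to plasma, and to misfolded protein through the endoplasmic reticulum stress pathway and its transcription factor ATF4.

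The vehicle libraries held 88048143 to 113312308 counts and the low-dose libraries 37538251 to 53386583, so depth and exposure cannot be told apart. The liver label was checked against hepatocyte genes. The summed level of 14 of them was 158825 to 162104.5 CPM (counts scaled to a common TMM-normalized library size) with vehicle, 155506 to 194127.7 CPM at 0.22 mmol/kg and 124696.1 to 156934.9 CPM at 0.67 mmol/kg. Prss1, Prss2, Cela3b, Clps and Try4 of pancreatic acinar cells and Cdx2, Cdh17 and Sis of intestine were at 0 in all 8 libraries. These are 5 of 12 acinar and 3 of 8 intestinal genes listed, and the others were not all absent. The 12 acinar genes summed to 41.0 to 74.7 CPM over the 8 libraries and the 8 intestinal genes to 45.3 to 81.7 CPM. In whole tissue, fewer cells of a type and less RNA per cell cannot be told apart. The labels do not say that the libraries of a group came from separate animals, so a p-value here speaks only of sample-to-sample spread, which may be technical.

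Against vehicle, 2 genes passed the threshold for both low doses together, Fdx2 and Scand1, and both were lower. This is 0.0152% of 13174 genes tested (edgeR's quasi-likelihood test, adjusted p under 0.05). DESeq2 called 38 genes, 8 higher and 30 lower. At the nominal level, meaning p below 0.05 without adjustment, edgeR had 291 genes higher (2.21%) and 598 lower (4.54%). The median difference over all genes was -0.01 on the log2 scale, and a gene's 95% interval typically reached 0.49 to either side of its estimate (median over genes). On counts simulated for this comparison over the same 13174 genes, the test recovered 53 of 100 genes changed 2-fold and 85 of 100 changed 4-fold, with 6 false calls. The simulated counts varied independently by gene and library, without the differences between vehicle libraries described below that many genes share. These recovered shares may therefore not hold for the real libraries.

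Fdx2 encodes a mitochondrial ferredoxin, an electron carrier in the assembly of iron-sulfur clusters (GRCm38.p6 chromosome 9, 21067512 to 21073531). It lay at 3.31, 0.176 and 1.31 CPM in vehicle libraries 1, 2 and 3, at 0.0481, 0.0777 and 0.0184 CPM at 0.22 mmol/kg and at 0.149 and 0.289 CPM at 0.67 mmol/kg. Vehicle libraries 1 and 3 lie above every dosed library, and vehicle library 2 lies among the 0.67 mmol/kg libraries. Fdx2 fell by 3.78 ± 0.64 on the log2 scale (SE, edgeR adjusted p = 0.0341). Its levels are low, and vehicle library 2 holds 16 counts where library 1 holds 371.

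Scand1 encodes a small nuclear protein built around a SCAN domain (chromosome 2, 156311846 to 156312704). It stood at 25.9, 1.08 and 2.63 CPM with vehicle, at 0.217, 0.285 and 0.461 CPM at 0.22 mmol/kg and at 0.298 and 1.65 CPM at 0.67 mmol/kg. The groups overlap, because the second 0.67 mmol/kg library is above vehicle library 2. Scand1 fell by 4.06 ± 0.70 (edgeR adjusted p = 0.0341).

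As the genes edgeR called for both low doses together, both are shown with the 250 bases before their RefSeq start sites (GRCm38.p6, 5′ to 3′ on the gene's strand), with each CG pair, the usual site of DNA methylation, in capitals. The Fdx2 window, chr9:21073532-21073781 on the minus strand, holds 13 CG pairs, and 31.5% of promoters of that length hold as many. The Scand1 window, chr2:156312705-156312954 on the minus strand, holds 12, and 33.5% hold as many.
Fdx2: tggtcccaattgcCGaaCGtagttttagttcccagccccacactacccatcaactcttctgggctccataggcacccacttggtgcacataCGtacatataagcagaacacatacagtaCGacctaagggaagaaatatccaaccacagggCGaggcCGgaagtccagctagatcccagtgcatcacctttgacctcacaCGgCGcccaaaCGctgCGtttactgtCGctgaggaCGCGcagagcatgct
Scand1: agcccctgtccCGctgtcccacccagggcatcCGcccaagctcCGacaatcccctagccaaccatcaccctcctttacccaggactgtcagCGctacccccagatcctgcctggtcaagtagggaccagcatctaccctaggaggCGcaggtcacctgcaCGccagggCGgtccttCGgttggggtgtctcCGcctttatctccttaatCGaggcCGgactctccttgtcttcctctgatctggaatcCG
Promoters of all tested genes had a median of 15 CG pairs.

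Both calls depend on which vehicle libraries enter. Without vehicle library 1 the difference was -2.69 for Fdx2 (edgeR adjusted p = 0.932) and -1.66 for Scand1 (adjusted p = 1.0). With vehicle library 2 as the only vehicle library, a setting chosen after seeing the data, it was -0.59 for Fdx2 (edgeR adjusted p = 0.784) and -0.85 for Scand1 (adjusted p = 0.713). The calls were also lost when any 1 of the 3 libraries at 0.22 mmol/kg, or the first at 0.67 mmol/kg, was left out (edgeR adjusted p from 0.0837 to 0.221), and in a fit of the compared libraries alone (0.999 for both genes).

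The TCE libraries put the 3 vehicle libraries in context. In all 15 TCE liver libraries, those given vehicle included, Fdx2 was at 2.45 to 3.97 CPM and Scand1 at 13.5 to 45.0 CPM. Across the 11 dosed PCE libraries Fdx2 was at 0.0184 to 0.828 CPM and Scand1 at 0.217 to 1.72 CPM. PCE vehicle library 1 therefore lies in the TCE range for both genes, PCE vehicle library 2 lies in the range of dosed PCE, and library 3 lies between.

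This pattern was shared by a set of 24 genes, chosen after seeing it, in which every TCE library was above every dosed PCE library with a gap of at least 4-fold between medians. No gene had the opposite pattern. Vehicle library 1 lay in the TCE range for all 24, vehicle library 2 in the dosed PCE range for 23, and vehicle library 3 in the TCE range for 3, in the dosed PCE range for 8 and between for 13. The median difference of the 24 at low doses was -2.47, and since the choice used the low-dose libraries this is a description. The set holds Rbp4, the plasma carrier of retinol, Dut and Ung, which keep uracil out of DNA, Ccnd3, a D-type cyclin, Dvl1, a transducer of Wnt signals, and Adra1b, an adrenergic receptor of hepatocytes.

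Rbp4 shows the pattern at a high level. It was at 229.3, 10.1 and 107.1 CPM with vehicle, at 15.2, 9.14 and 4.59 CPM at 0.22 mmol/kg and at 12.2 and 27.0 CPM at 0.67 mmol/kg, while the TCE libraries ran from 146.1 to 265.4 CPM. Vehicle library 2 is again within the dosed group. The difference was -3.09 ± 0.56 and did not pass (edgeR adjusted p = 0.0556). Zfp771, a zinc finger protein, was at 18.7, 3.93 and 7.01 CPM with vehicle against 2.07 to 4.65 CPM when dosed (-1.64 ± 0.32, edgeR adjusted p = 0.0839).

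The 24 genes differ from the rest in base composition and annotation. Their transcripts had a median GC content of 58.7% and a median length of 1541 bases, against 50.3% and 2755 bases over the tested genes. Several transcripts are annotated for 14 of them (58.3%), against 20.5% of tested genes, and reads shared by transcripts are set aside by the counting. Vehicle library 2 had the steepest slope of log2 CPM on GC content of the 8 libraries, 0.256, with the others from -0.11 to 0.058. Vehicle library 1 had a slope of 0.058. A positive slope means that genes rich in GC read higher, whereas the 24 genes read lower in vehicle library 2 than in vehicle library 1. With slopes on length and GC as covariates edgeR called 0 genes at low doses (1693 at the nominal level). The part of base composition, transcript counting or library handling in the split was not tested.

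**Figure D1:**
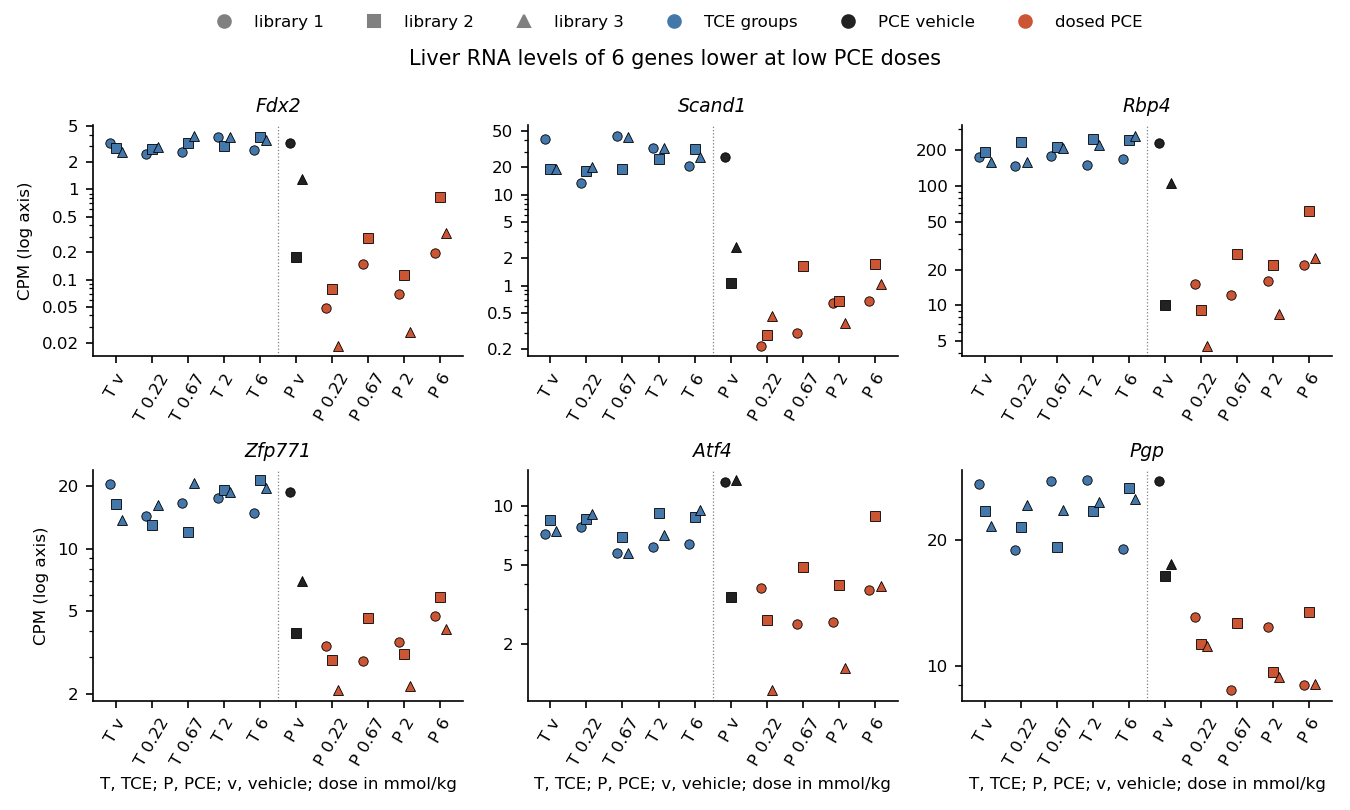
Levels in CPM (log axis) of 6 genes that were lower at low PCE doses, in all 29 liver libraries by chemical (T, TCE; P, PCE) and dose in mmol/kg (v, vehicle); each point is 1 library and its shape gives the library number. For Fdx2, Scand1, Rbp4 and Zfp771 the 15 TCE libraries and PCE vehicle library 1 form an upper band, and PCE vehicle library 2 sits with or next to the 11 dosed PCE libraries.

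Other genes were lower in all 5 dosed libraries than in all 3 vehicle libraries, as were 2.35% of genes tested, but did not pass. Rnf126, a ubiquitin ligase, was at 9.34, 9.55 and 9.89 CPM with vehicle and at 6.43, 6.37, 6.44, 5.46 and 6.0 CPM when dosed. Here the 3 vehicle libraries are close together, and the difference was -0.64 ± 0.15 (edgeR adjusted p = 0.153). Smad6, an inhibitor of BMP signaling, was at 5.25, 5.66 and 6.46 CPM against 2.6 to 4.45 CPM (-0.74 ± 0.16, edgeR adjusted p = 0.137). Slc34a2, a phosphate transporter, was at 8.7, 5.57 and 14.4 CPM against 2.69 to 4.93 CPM (-1.41 ± 0.30, edgeR adjusted p = 0.131). Vehicle library 2 is the lowest vehicle library for Slc34a2 but not for Rnf126 or Smad6. Pgp, a phosphatase of phosphoglycolate, was at 27.7, 16.4 and 17.5 CPM against 8.75 to 13.1 CPM. Sp5, a transcription factor induced by Wnt signals, was at 2.41, 1.68 and 1.65 CPM against 0.496 to 1.24 CPM. Rnf39, a ring finger protein, was at 7.24 to 9.26 CPM against 4.07 to 6.62 CPM. For Rnf126, Pgp and Rnf39 every TCE library was also above every dosed PCE library, with medians less than 4-fold apart. The lowest TCE libraries were at 7.84, 18.9 and 6.86 CPM, and the highest dosed PCE libraries at 7.62, 13.5 and 6.62 CPM. TCE and dosed PCE libraries overlapped for Smad6 and Slc34a2.

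On the higher side edgeR called 0 genes (0.0%), where 291 stood at the nominal level and DESeq2 called 8. The smallest p was that of Crebrf, a regulator of the CREB3 family of stress factors. It was at 9.42, 16.2 and 6.91 CPM with vehicle, at 12.8, 16.6 and 27.1 CPM at 0.22 mmol/kg and at 34.6 and 33.4 CPM at 0.67 mmol/kg. Both libraries at the higher dose stand above all others, while those at the lower dose overlap vehicle. The difference over both doses was 1.20 ± 0.29 (edgeR adjusted p = 0.184).

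Irf2, an interferon regulatory factor, was at 39.5, 41.2 and 36.1 CPM with vehicle and at 47.2 to 57.5 CPM when dosed (0.44 ± 0.11, edgeR adjusted p = 0.19). Ccng2, a cyclin of non-dividing cells, was at 12.0, 11.2 and 9.94 CPM against 16.0 to 25.4 CPM (0.88 ± 0.22, edgeR adjusted p = 0.21). Neither gene overlapped between groups, as was so for 1.45% of genes tested. The 15 TCE libraries ran from 39.2 to 65.2 CPM for Irf2, across the gap, and from 13.0 to 25.6 CPM for Ccng2, above all PCE vehicle libraries.

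Igfbp1, a binding protein for insulin-like growth factors that liver secretes in fasting, lay at 63.6, 148.2 and 73.5 CPM with vehicle, at 245.7, 321.0 and 290.3 CPM at 0.22 mmol/kg and at 182.4 and 270.3 CPM at 0.67 mmol/kg. All 5 dosed libraries are above all 3 vehicle libraries. The difference was 1.46 ± 0.51 and did not pass (edgeR adjusted p = 0.474). Of 24 tested genes of fasting and gluconeogenesis, edgeR and DESeq2 called 0. At the nominal level 2 were higher (2.21% of all genes), and the median difference was 0.06.

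Among PPARa targets and fatty acid oxidation genes no change was called at the low doses. Of 49 tested, edgeR and DESeq2 called 0, 3 were higher and 0 lower at the nominal level (2.21% and 4.54% of all genes), and the median difference was -0.01, as over all genes. Cyp4a32, a fatty acid hydroxylase with the smallest p of the list, was at 26.2, 46.2 and 20.8 CPM with vehicle and at 40.6 to 78.5 CPM when dosed, with vehicle library 2 inside the dosed range (0.89 ± 0.37, edgeR adjusted p = 0.643). Cyp4a14, a fatty acid hydroxylase strongly induced through PPARa, was at 10.3, 5.2 and 2.05 CPM with vehicle, at 64.9, 14.4 and 8.89 CPM at 0.22 mmol/kg and at 10.6 and 21.1 CPM at 0.67 mmol/kg. The first library at 0.22 mmol/kg stands apart, and the groups overlap. The difference was 2.03 ± 0.97 with a 95% interval from 0.03 to 4.03 (edgeR adjusted p = 0.728), so a rise of that size is not resolved.

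Its neighbor Cyp4a10 followed the same libraries, at 63.7, 34.3 and 22.3 CPM with vehicle and at 260.2, 59.9, 78.4, 53.8 and 139.0 CPM when dosed (1.56 ± 0.70, edgeR adjusted p = 0.693). Ehhadh, the peroxisomal bifunctional enzyme, differed by 0.19 ± 0.32, Acot1, an acyl-CoA thioesterase, by -0.24 ± 0.46 and Cpt1a, which admits fatty acids to mitochondria, by -0.01 ± 0.27. Cyp4a and Acot genes have close copies, so the counting could split or drop their reads and their levels are uncertain.

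Genes that handle the solvent were likewise without a call. Of 21 genes of solvent oxidation and aldehyde metabolism, edgeR and DESeq2 called 0, none stood at the nominal level and the median difference was -0.17. Cyp2e1, a P450 that oxidizes small solvents, was at 6004.7, 5020.7 and 5980.2 CPM with vehicle and at 4647.8 to 6387.0 CPM when dosed (-0.06 ± 0.17). Of 34 glutathione conjugation and mercapturate genes, edgeR and DESeq2 called 0, none stood at the nominal level and the median was -0.09. Cyp2b10, a target of the receptor CAR, differed by -0.66 ± 0.45, Cyp7a1, the rate-limiting enzyme of bile acid synthesis, by -0.12 ± 0.49 and Cdkn1a, a p53 target that halts the cell cycle, by -0.31 ± 0.61.

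Among the 23 function lists those with the lowest medians were endoplasmic reticulum stress and ATF4 genes, at -0.41, and cell cycle and replication genes, at -0.51. Of 31 stress genes edgeR called 0 and DESeq2 1 lower. At the nominal level 10 were lower and 1 higher (4.54% and 2.21% of all genes). Atf4 itself was at 13.2, 3.44 and 13.5 CPM with vehicle and at 1.16 to 4.91 CPM when dosed, with vehicle library 2 again inside the dosed range (-1.74 ± 0.38, edgeR adjusted p = 0.137). Ddit3, the stress factor CHOP, did not overlap, at 4.03, 4.92 and 6.01 CPM against 1.07 to 2.98 CPM (-1.21 ± 0.35, edgeR adjusted p = 0.307). Without vehicle library 3, 4 of the 31 were lower at the nominal level and the median was -0.27. In that fit 554 of 13174 tested genes stood at the nominal level in either direction.

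Of 25 cell cycle genes edgeR and DESeq2 called 0 and 10 were lower at the nominal level (4.54% of all genes). Mcm6, a subunit of the replicative helicase, was at 4.2, 5.35 and 5.27 CPM with vehicle and at 2.56 to 3.35 CPM when dosed, without overlap (-0.73 ± 0.23, edgeR adjusted p = 0.383). This list leans on vehicle library 2. Without that library 3 of the 25 were lower and the median was -0.17. In that fit 2032 of 13174 tested genes stood at the nominal level in either direction.

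**Figure D2:**
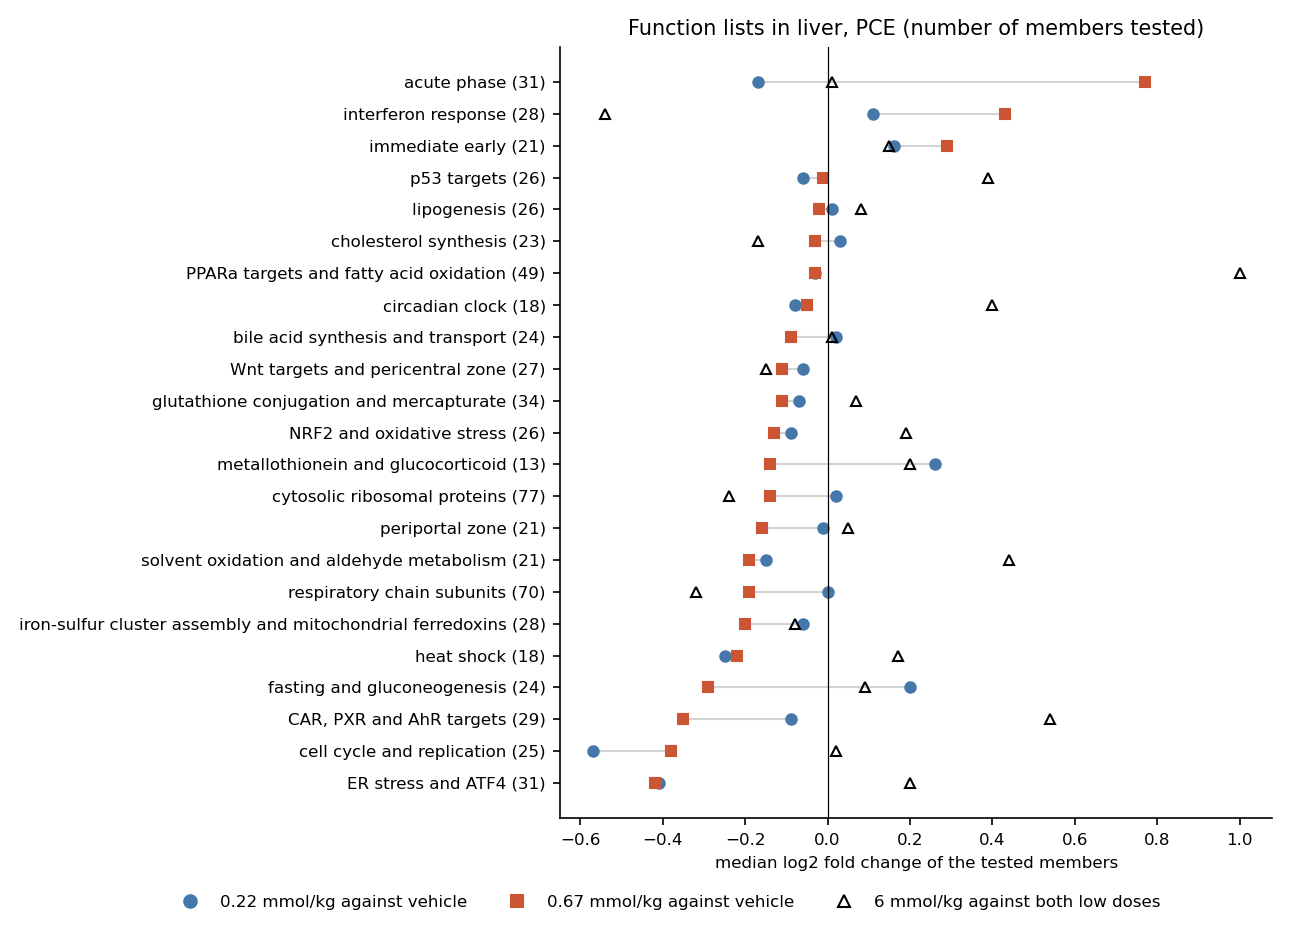
Median log2 fold change of the tested members of 23 function lists at 0.22 mmol/kg (circles) and 0.67 mmol/kg (squares) against vehicle, and at 6 mmol/kg against both low doses (open triangles), with the number of members tested in brackets. The low doses share vehicle libraries; their acute phase medians are -0.17 and 0.77, and the PPARa list stands at -0.03 at both low doses and 1.00 higher at 6 mmol/kg than at the low doses.

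Taken alone, 0.22 mmol/kg differed from vehicle in 1 gene, Fdx2, which fell by 5.09 ± 0.83 (edgeR adjusted p = 0.0383). This is 0.00759% of genes tested, with 176 genes (1.34%) higher and 404 (3.07%) lower at the nominal level, and DESeq2 called 29. The 0.22 mmol/kg call has the same dependence on vehicle libraries, with 0 genes called by edgeR (322 at the nominal level) without vehicle library 1 and 38 without vehicle library 2.

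At 0.67 mmol/kg the gene called was Rnf43 (0.00759%), with 459 genes (3.48%) higher and 538 (4.08%) lower at the nominal level, and DESeq2 called 51. Rnf43 is a membrane ubiquitin ligase that removes Wnt receptors from the cell surface and is itself induced by Wnt signals (chromosome 11, 87663087 to 87735539). It was at 25.5, 30.9 and 42.8 CPM with vehicle, at 29.1, 23.3 and 20.3 CPM at 0.22 mmol/kg and at 12.6 and 12.1 CPM at 0.67 mmol/kg. Both 0.67 mmol/kg libraries lie below all the others of PCE, since libraries at 2 and 6 mmol/kg were at 16.9 to 24.8 CPM, and also below the 15 TCE libraries, at 14.3 to 39.1 CPM. Rnf43 fell by 1.42 ± 0.21 at 0.67 mmol/kg (edgeR adjusted p = 0.00944), and differed from vehicle by -0.45 ± 0.18 at 0.22 mmol/kg (adjusted p = 0.98).

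The difference in Rnf43 between the low doses was -0.98 ± 0.21 (edgeR adjusted p = 0.237, DESeq2 0.0103). The Rnf43 call at 0.67 mmol/kg was lost without vehicle library 3 (edgeR adjusted p = 0.0706), without either 0.67 mmol/kg library (0.638 and 0.116) and in a fit of the compared libraries only (0.803), with a difference of -1.19 to -1.43 throughout. Of 27 tested Wnt targets and pericentral genes, Rnf43 was the 1 that fell at 0.67 mmol/kg. At the nominal level 3 were lower (4.08% of all genes), and the median was -0.11.

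Between the low doses the gene called was GBP11 (0.00759%), with 284 genes (2.16%) higher and 183 (1.39%) lower at 0.67 mmol/kg at the nominal level, and DESeq2 called 13. GBP11 is the deposited symbol of a guanylate-binding protein, a family of interferon-induced GTPases. It was at 33.2, 26.5 and 27.8 CPM at 0.22 mmol/kg, at 126.4 and 106.5 CPM at 0.67 mmol/kg and at 64.4, 43.9 and 59.0 CPM with vehicle. The doses lie on opposite sides of vehicle, and libraries at 2 and 6 mmol/kg, at 14.3 to 36.0 CPM, are with the lower dose. GBP11 rose by 2.00 ± 0.31 from 0.22 to 0.67 mmol/kg (edgeR adjusted p = 0.0155). The call was lost without any 1 of the 0.22 mmol/kg libraries (edgeR adjusted p = 0.0743, 0.246 and 0.209) without the first 0.67 mmol/kg library (0.467) and in a fit of the compared libraries alone (0.0912), and near-identical family members make the count uncertain.

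Other genes set 0.67 mmol/kg apart without passing. Herpud1, which helps degrade misfolded protein at the endoplasmic reticulum, was at 487.6, 588.5 and 753.9 CPM with vehicle, at 434.4, 463.8 and 528.2 CPM at 0.22 mmol/kg and at 178.8 and 267.4 CPM at 0.67 mmol/kg. The 0.67 mmol/kg libraries lie below both other groups (-1.45 ± 0.31 against vehicle, edgeR adjusted p = 0.177). Chac1, a glutathione-degrading enzyme induced by ATF4, differed from vehicle by 2.13 ± 0.53. Hspa5, the chaperone BiP, differed from vehicle by -2.17 ± 0.72, but for this gene the low doses overlapped. Its counts were 336, 117 and 95 at 0.22 mmol/kg and 150 and 101 at 0.67 mmol/kg. Of the 31 stress genes at 0.67 mmol/kg edgeR called 0 and DESeq2 1 higher and 2 lower. At the nominal level 9 were lower and 2 higher (4.08% and 3.48% of all genes), and the median was -0.42. Bag3, a co-chaperone of heat shock, differed by -1.69 ± 0.46 and Jun, an immediate early factor, by -1.75 ± 0.55.

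Rad51b, a recombination repair gene, was at 0.437, 0.352 and 0.187 CPM with vehicle, at 0.361, 0.285 and 0.443 CPM at 0.22 mmol/kg and at 1.02 and 1.65 CPM at 0.67 mmol/kg (2.03 ± 0.46, edgeR adjusted p = 0.26). It continued upward to 1.8, 2.79 and 3.21 CPM at 2 mmol/kg and 7.45, 3.57 and 4.53 CPM at 6 mmol/kg. Its levels from 0.22 mmol/kg up are ordered by dose with no overlap between neighboring doses, and it rose by 2.78 ± 0.45 from the low doses to 6 mmol/kg (edgeR adjusted p = 0.0012). Cyp2c53-ps, a P450 pseudogene, was at 2.95, 5.28 and 3.4 CPM with vehicle, at 2.67, 2.12 and 2.77 CPM at 0.22 mmol/kg and at 0.744 and 0.667 CPM at 0.67 mmol/kg, where libraries at 2 and 6 mmol/kg also lay (0.153 to 0.804 CPM). Cyp3a11, a drug-metabolizing P450, was at 4167.0 to 4974.1 CPM with vehicle and at 1845.8 and 2633.2 CPM at 0.67 mmol/kg (-1.04 ± 0.28, edgeR adjusted p = 0.276).

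**Figure D3:**
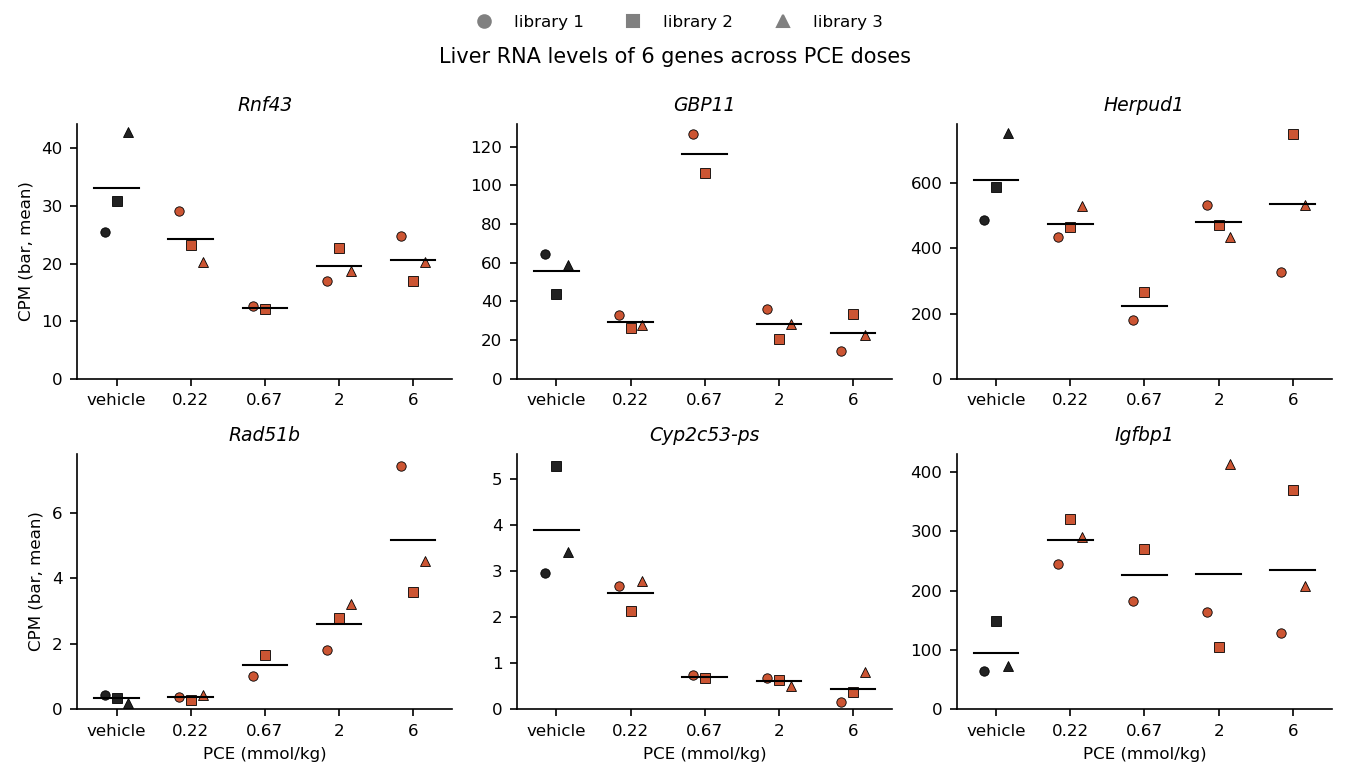
Levels in CPM of 6 genes in the PCE liver libraries by dose in mmol/kg; each point is 1 library, its shape gives the library number and the bar is the group mean. Rnf43 and Herpud1 are lowest and GBP11 highest at 0.67 mmol/kg, and Rad51b steps up from 0.67 mmol/kg to 6 mmol/kg.

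Acute phase genes stood higher at 0.67 mmol/kg, though none passed the threshold in edgeR. Of 31 tested, 13 were higher and 0 lower at the nominal level, where 3.48% of all genes were higher, and 3 rose by DESeq2. The 0.67 mmol/kg libraries lay above all vehicle libraries for 19 of the 31, against 9.0% of all genes, and the median difference was 0.77 against -0.03. At 0.22 mmol/kg edgeR and DESeq2 called 0 of 31, none was higher at the nominal level and the median was -0.17.

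Saa1, serum amyloid A, a plasma apolipoprotein of inflammation, was at 102.9, 605.8 and 170.4 CPM with vehicle, at 376.3, 121.8 and 79.0 CPM at 0.22 mmol/kg and at 12041.9 and 6077.2 CPM at 0.67 mmol/kg. The difference was 4.95 ± 1.48 (edgeR adjusted p = 0.342). Its neighbor Saa2 was at 14.7, 311.1 and 31.2 CPM with vehicle and at 11597.2 and 5613.3 CPM at 0.67 mmol/kg. Both genes are highest in both 0.67 mmol/kg libraries, with vehicle library 2 the highest of the vehicle group.

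Orm2, an orosomucoid that carries drugs and lipids in plasma, was at 20.8, 47.4 and 22.0 CPM with vehicle, at 17.1, 17.8 and 13.8 CPM at 0.22 mmol/kg and at 674.7 and 414.2 CPM at 0.67 mmol/kg (4.18 ± 1.07, edgeR adjusted p = 0.261). Between the low doses Orm2 differed by 5.07 ± 1.11 (edgeR adjusted p = 0.237). Lcn2, which binds bacterial iron carriers, was at 2.92, 11.4 and 5.06 CPM with vehicle and at 344.3 and 120.6 CPM at 0.67 mmol/kg. Constitutively abundant members differed less. Hpx, the heme carrier hemopexin, was at 4709.9, 5262.6 and 3964.9 CPM with vehicle and at 11021.8 and 8921.5 CPM at 0.67 mmol/kg (1.10 ± 0.45), and Hp, the hemoglobin carrier haptoglobin, differed by 0.96 ± 0.50.

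The same genes were high in single libraries elsewhere, which sets the scale of the spread. The first library at 6 mmol/kg had Saa1 at 7378.2 CPM where the others at that dose had 592.3 and 305.8 CPM. TCE vehicle libraries 1 and 3, which received no solvent, had Saa1 at 19579.1 and 11254.5 CPM and TCE vehicle library 2 had 103.9 CPM. With both vehicle groups taken as 1, the median of the 31 genes at 0.67 mmol/kg was -0.15 and none was higher at the nominal level in edgeR. That fit had 1273 of 13174 tested genes at the nominal level in either direction. Lcn2, Hpx and Hp then turned to the opposite sign. Without the first 0.67 mmol/kg library 5 of 31 were higher at the nominal level and the median was 0.52. That fit had 536 of 13174 tested genes at the nominal level in either direction, against 997 in the main fit.

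Markers of inflammatory cells were measured beside this list. All 12 Kupffer cell and macrophage genes had a fitted difference above 0 at 0.67 mmol/kg, as did 45.3% of all genes, with a median of 0.72. At the nominal level 2 were higher (3.48% of all genes), and 0 were called by edgeR or DESeq2. For 3 of the 12 both libraries lay above all vehicle libraries (9.0% of all genes). Their summed level was 100.1 to 332.2 CPM with vehicle, 104.9 to 295.2 CPM at 0.22 mmol/kg and 231.4 to 403.2 CPM at 0.67 mmol/kg, and none of the 12 was at 0. Against vehicle library 2 alone their median was 0.03. The sum of 10 neutrophil genes was 0.446 to 1.96 CPM with vehicle and 2.2 to 2.26 CPM at 0.67 mmol/kg, while the sum of hepatocyte genes at 0.67 mmol/kg was below all vehicle libraries. The 14 hepatocyte genes had a median of -0.16, with 3 above 0 (45.3% of all genes). At the nominal level 0 of them were lower (4.08% of all genes) and 0 higher. Of 28 interferon response genes, 7 were higher at the nominal level (3.48% of all genes), 0 were called by edgeR or DESeq2 and the median was 0.43. That median was 0.0 against vehicle library 2 alone and 0.27 without the first 0.67 mmol/kg library. It was 0.24 without vehicle library 3 and 0.58 without vehicle library 2. Long nuclear RNAs, which shift with RNA handling, summed to 819.6 to 2404.4 CPM with vehicle, 772.3 to 2085.0 CPM at 0.22 mmol/kg and 2702.2 to 3001.8 CPM at 0.67 mmol/kg. The part of these cells or of RNA handling in the acute phase values was not tested.

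Because many acute phase genes stood higher together, their promoters were searched over 250 bases before the RefSeq start (GRCm38.p6) for 3 motifs on both strands. Promoters were matched for 25 of the 31 genes, 28 in all. TTGCNCAA, a site of the C/EBP family chosen after looking at these sequences, was in 8 of 28 (28.6%), against 2.6% of all 32851 promoters. TTCNNNGAA, a STAT site, was in 7 (25.0%) against 7.0%, and a fixed NF-kB consensus was in 0 against 0.1%. Each motif was counted on its own, so 1 stretch may match several, and a match is a description of the sequence only. Of the genes described above that hold TTGCNCAA, 3 are shown 5′ to 3′ on the gene's strand with the match in capitals: Saa2 at chr7:46751583-46751832 (plus), Orm2 at chr4:63362199-63362448 (plus) and Lcn2 at chr2:32387740-32387989 (minus).
Saa2: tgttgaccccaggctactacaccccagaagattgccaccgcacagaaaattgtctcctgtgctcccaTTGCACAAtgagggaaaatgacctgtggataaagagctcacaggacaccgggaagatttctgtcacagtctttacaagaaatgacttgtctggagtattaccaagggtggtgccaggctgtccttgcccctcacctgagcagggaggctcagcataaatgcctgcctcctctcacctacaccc
Orm2: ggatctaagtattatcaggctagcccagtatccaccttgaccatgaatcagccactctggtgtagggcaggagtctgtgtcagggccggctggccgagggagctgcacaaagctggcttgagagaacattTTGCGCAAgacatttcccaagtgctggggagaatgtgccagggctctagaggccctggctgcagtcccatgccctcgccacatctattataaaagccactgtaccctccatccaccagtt
Lcn2: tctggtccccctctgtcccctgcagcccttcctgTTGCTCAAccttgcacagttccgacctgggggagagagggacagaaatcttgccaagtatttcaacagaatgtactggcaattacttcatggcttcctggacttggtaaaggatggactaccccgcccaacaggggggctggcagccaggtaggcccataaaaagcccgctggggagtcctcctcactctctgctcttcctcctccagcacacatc
The remaining promoters with this motif belong to Fga and Fgb, chains of fibrinogen, Orm3, Saa4 and Saa1, whose window lies partly inside the gene's RefSeq span and is not shown. The Saa and Orm genes are members of families, and the Saa1 and Saa2 windows are nearly the same sequence. The 8 matches are therefore not independent of each other.

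**Figure D4:**
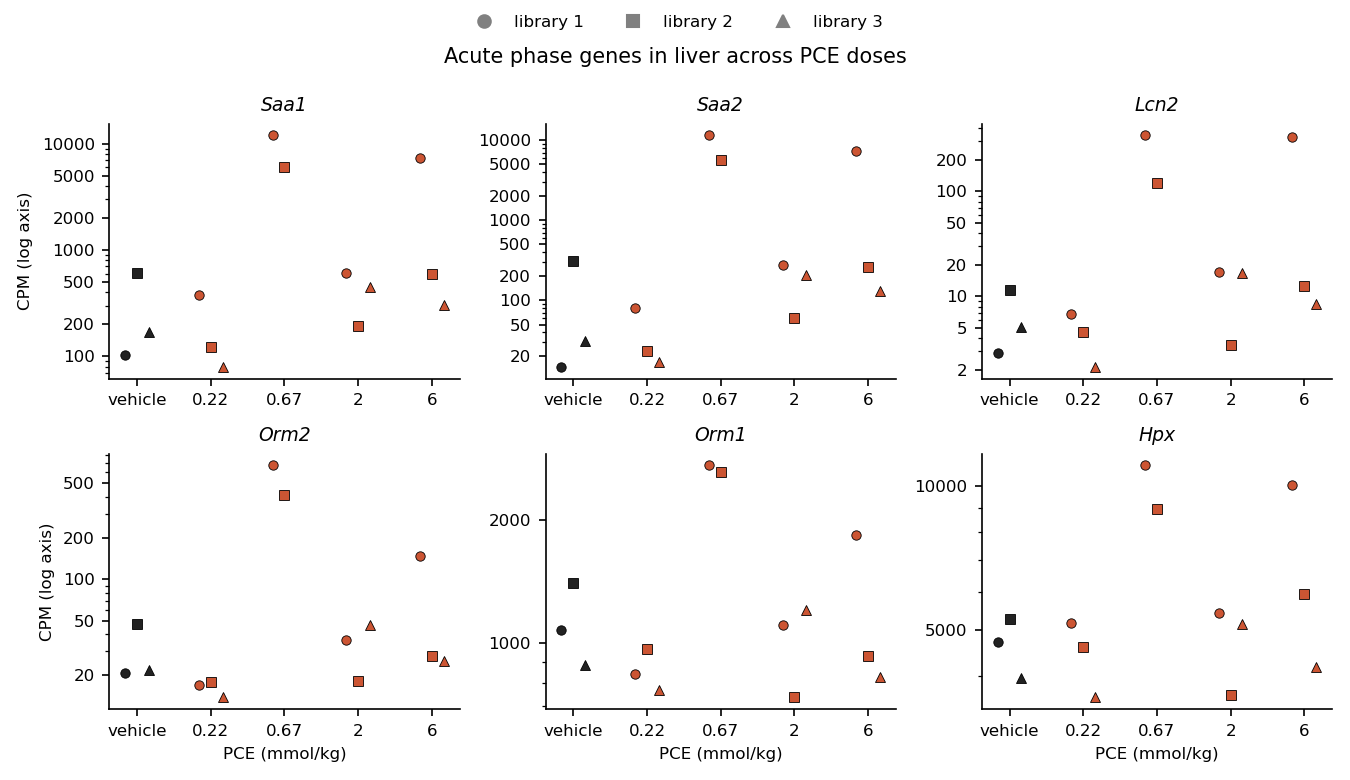
Levels in CPM (log axis) of 6 acute phase genes in the PCE liver libraries by dose in mmol/kg; each point is 1 library and its shape gives the library number. Both 0.67 mmol/kg libraries lie above the vehicle and 0.22 mmol/kg libraries for all 6 genes, and the first library at 6 mmol/kg is high as well.

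Libraries at 6 mmol/kg were compared with the low doses without use of the vehicle libraries. They held 120099989 to 125880542 counts, so depth and dose cannot be told apart here either. At 6 mmol/kg 304 genes rose (2.31%) and 381 fell (2.89%) relative to the low doses, 5.2% of genes tested. PPARa targets led, with 31 of 49 higher in edgeR, 0 lower and a median of 1.00. Ehhadh rose by 3.17 ± 0.32 (edgeR adjusted p = 7.33e-06), from 164.2 to 330.7 CPM in the low-dose libraries to 2573.8, 1517.2 and 2199.3 CPM. Cyp4a14 rose by 7.24 ± 1.03, to 7481.3, 1154.6 and 2195.3 CPM, and Cyp4a10 by 4.80 ± 0.69. Acot3, a peroxisomal thioesterase, rose by 4.98 ± 0.84, Cyp4a31 by 3.71 ± 0.42, Acot1 by 2.87 ± 0.46 and Cpt1a by 1.16 ± 0.27. No low-dose library reached the lowest 6 mmol/kg library for any of these 7 genes. Libraries at 2 mmol/kg were between for Cyp4a14, at 206.9, 703.0 and 288.3 CPM, and for Ehhadh, at 524.2, 985.2 and 740.8 CPM.

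Of the solvent oxidation list 7 of 21 genes rose, with a median of 0.44, but 1 rose with length and GC covariates (median 0.11) and 2 without the first 6 mmol/kg library. Cyp2a5, a P450 of small substrates, rose by 1.62 ± 0.25, from 315.1 to 436.3 CPM to 1226.0, 853.3 and 1498.7 CPM, and Cyp2e1 by 0.63 ± 0.17 (edgeR adjusted p = 0.0295). Por, the electron donor of microsomal P450s, rose by 1.12 ± 0.28, with 1 library at 704.4 CPM and the others at 206.8 and 278.1 CPM, where the low-dose range was 119.7 to 233.8 CPM. Of 29 CAR, PXR and AhR targets 8 rose and 1 fell, with a median of 0.54. With length and GC covariates the median was 0.07 and 0 rose, and 0 rose with the compared libraries alone or without library 3 at 0.22 mmol/kg, library 2 at 0.67 mmol/kg, or library 1 or 3 at 6 mmol/kg, each left out in turn. Of 26 NRF2 targets 4 rose, among them Nqo1, a quinone reductase (0.87 ± 0.24).

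Of 28 interferon response genes 6 fell, among them Isg15, a ubiquitin-like protein (-1.41 ± 0.33, edgeR adjusted p = 0.0176). With length and GC covariates 1 fell and the median went from -0.54 to -0.25, 1 fell without the first 6 mmol/kg library, and 2 fell with the compared libraries alone or without the third 6 mmol/kg library. The called genes of largest decrease were Ptgds, a prostaglandin synthase (-2.98 ± 0.64), Clic3, an intracellular chloride channel protein (-2.58 ± 0.45), Dnaic1, an axonemal dynein chain (-2.29 ± 0.52), Cd4, a receptor of helper T cells (-2.15 ± 0.34), and Cyp2c53-ps (-2.02 ± 0.58). Cd4 lay at 5.82 to 9.7 CPM in the low-dose libraries and at 0.704, 2.37 and 1.9 CPM at 6 mmol/kg. Long nuclear RNAs had a median of -0.64, with 3 of 6 lower at the nominal level. In this comparison 3762 of 13174 tested genes stood at that level in either direction. There 3 of 11 stellate cell and fibroblast genes also rose, as did 2.31% of all genes. The part of these RNAs and cells in these differences was not tested. The first library at 6 mmol/kg weighs on these counts. Without it 45 genes were called, 30 higher and 15 lower, and 15 of the 49 PPARa genes rose with a median of 0.82. The libraries at 6 mmol/kg had GC slopes of -0.245, -0.213 and -0.359, outside the low-dose range of -0.11 to 0.058, and with slopes on length and GC as covariates 141 genes were called and 19 of the 49 PPARa genes rose.

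**Figure D5:**
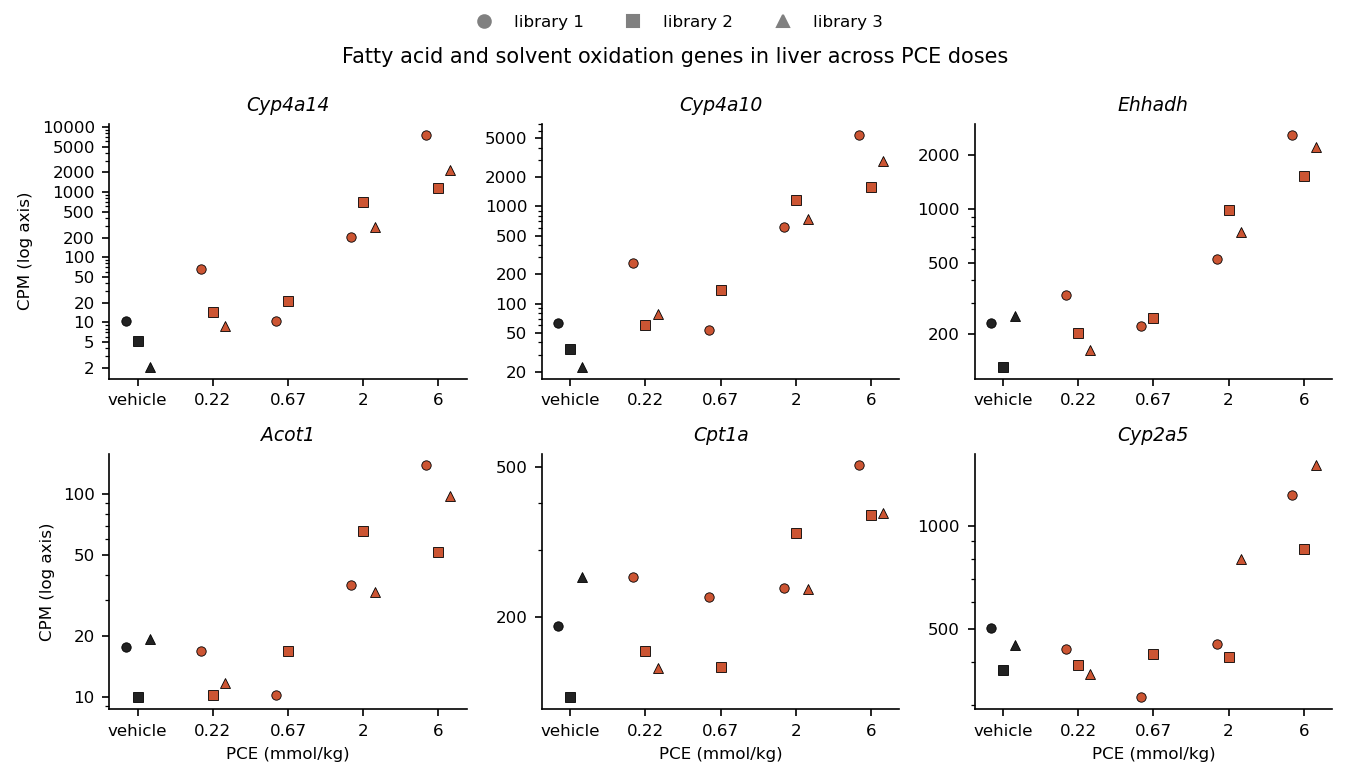
Levels in CPM (log axis) of 5 fatty acid oxidation genes and Cyp2a5 in the PCE liver libraries by dose in mmol/kg; each point is 1 library and its shape gives the library number. All 3 libraries at 6 mmol/kg lie above all 5 low-dose libraries for each gene, and the vehicle and low-dose libraries overlap for each.

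TCE differs from PCE in that it carries a hydrogen where PCE carries a chlorine, and it was given at the same 0.22 and 0.67 mmol/kg. The low-dose response to PCE minus that to TCE, each against its own vehicle group, passed for 0 genes in edgeR (0.0%, with 419 genes or 3.18% higher and 347 or 2.63% lower at the nominal level) and 33 in DESeq2, which adjust over all genes for this 1 pair of compounds. A gene's 95% interval typically reached 0.69 to either side (median over genes), so differences smaller than that are not resolved for most genes. Slc13a5, a citrate transporter of the hepatocyte membrane, had the smallest p, with a difference of 4.85 ± 0.81 and a 95% interval from 3.17 to 6.52 (edgeR adjusted p = 0.0545).

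Slc13a5 was at 0.348, 0.572 and 0.481 CPM with PCE vehicle, at 0.337, 0.958 and 0.978 CPM at 0.22 mmol/kg PCE and at 4.94 and 1.91 CPM at 0.67 mmol/kg PCE. In TCE vehicle libraries it was at 10.9, 0.66 and 9.96 CPM and in the 6 low-dose TCE libraries at 0.531 to 1.13 CPM. The difference thus draws on high TCE vehicle libraries 1 and 3, the same that were high in acute phase genes. Of the 31 acute phase genes 24 were higher for PCE at the nominal level, with 0 called by edgeR and 11 by DESeq2 and a median of 1.69. Orm2 differed by 6.72 ± 1.27 (edgeR adjusted p = 0.0909), with TCE vehicle at 1472.7, 12.5 and 742.6 CPM against 9.07 to 60.6 CPM at low TCE doses.

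Herpud1 differed by -1.73 ± 0.33 (edgeR adjusted p = 0.0909), Fdx2 by -4.01 ± 0.81 (adjusted p = 0.117) and Scand1 by -4.01 ± 0.94 (adjusted p = 0.286). For the PPARa list the compounds did not separate, with 0 of 49 genes at the nominal level and a median of -0.16. The interval of the difference was -2.22 to 3.00 for Cyp4a14, -1.41 to 2.43 for Cyp4a10 and -1.22 to 0.66 for Ehhadh, which leaves room for sizable differences in the Cyp4a genes.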

How the data were processed

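Total RNA from liver was extracted with miRNeasy kits, made into libraries with a TruSeq total RNA kit and sequenced on a HiSeq-2000, per the labels' protocols. Per the submitters' processing notes CASAVA 1.8.2, TopHat2 2.0.10, HTSeq and the mm10 build were used, with no annotation version or strand setting named. The deposited values are raw read counts per RefSeq transcript for each library. In columns where the deposited table carries a line of fractional doses above the values, the unit was recorded under expected counts, but below that line the authors' values are whole numbers and were used unrounded. Rows that name no gene were left out of library sizes: ambiguous reads, which the counting could not give to 1 transcript, were 20.04 to 22.26% and reads outside features 15.99 to 22.29% of the 8 libraries. Genes with several transcripts are therefore understated.

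Transcripts were summed to 24122 genes, named by accession from the RefSeq table (32988 of 33392 transcripts), else by deposited symbol (278), else by accession (126). All 29 liver libraries were fitted together by dose group in edgeR 4.0.16 (R 4.3.3, limma 3.58.1) with TMM normalization, the package's default filter on low counts (13174 genes kept) and the robust quasi-likelihood test, with Benjamini-Hochberg adjustment over all tested genes and calls at an adjusted p under 0.05. Values are log2 fold changes ± SE, and CPM are counts scaled to the TMM library size. The fit was tested on simulated data. Members, gene lists and tests were chosen with earlier results of these data known. Genes named were those called, up to 10 a direction at low doses (filled by smallest p) and 5 elsewhere, with a mean of at least 1 CPM, the smallest p of each of 23 function lists, and a set chosen from earlier results. Genes of the 6 mmol/kg and TCE comparisons, list examples and the 24 genes that split the libraries were picked after their values were seen. Cell marker lists numbered 14, and 4 list symbols were not matched.

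Alternatives were DESeq2 1.42.0, its size factors, no count filter, the compared libraries alone, thinning to 30932385 counts, slopes of log2 CPM on length and GC content as covariates (98.88% of genes have both), leaving out each library, the mean of both dose changes, both vehicle groups as 1 and the replicate number as a block. Single vehicle libraries as the only vehicle were chosen after seeing the data. Depth limits precision as given by the SE.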

Additional observations from a re-analysis of the deposited data

Results flagged for a closer look

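Among 55 genes checked in the 5 low-dose libraries, 5 had 1 library far from the others, with a gap over 0.71 of the group's range; chance gives this for about 1 in 20 groups. Cyp4a14 was at 64.9 CPM in the first 0.22 mmol/kg library, against 8.89 to 21.1 CPM in the other 4. Akr1a1, an aldehyde reductase, was at 519.5 CPM in that library, against 393.4 to 427.2 CPM. Zbtb37, a zinc finger gene, was at 2.67 CPM there, against 3.62 to 3.82 CPM. Scand1 was at 1.65 CPM in the second 0.67 mmol/kg library, against 0.217 to 0.461 CPM. Cyp7b1, an oxysterol hydroxylase of bile acid synthesis, was at 545.2 CPM in the second 0.22 mmol/kg library, against 644.5 to 664.3 CPM, and at 736.0 to 903.0 CPM with vehicle.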

How the results depend on the processing

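Counts of called genes by edgeR were small and moved with the libraries used. For both low doses (2 called) there were 0 without a count filter, 0 with the compared libraries alone, 0 with length and GC covariates, 150 with both vehicle groups as 1 (19 higher, 131 lower), 48 with vehicle library 1 alone, 0 with vehicle library 2 alone and 38 by DESeq2. Leaving out 1 library gave 0 to 63, the most without vehicle library 2. For 0.22 mmol/kg (1 called) there were 0 with the compared libraries alone, 0 with covariates, 36 with both vehicle groups, 0 with vehicle library 2 alone, 29 by DESeq2 and 0 to 38 without 1 library. For 0.67 mmol/kg (1) these were 0, 2, 7, 0, 51 and 0 to 6. Between the low doses (1) there were 2 without a filter, 13 by DESeq2 and 0 to 6 without 1 library. For 6 mmol/kg against low doses (685; 304 higher, 381 lower) there were 454 without a filter (248 higher, 206 lower), 160 with the compared libraries alone (88 higher, 72 lower), 141 with covariates (80 higher, 61 lower), 1528 by DESeq2 and 45 to 1837 without 1 library, the fewest without the first 6 mmol/kg library and the most without the first 0.22 mmol/kg library. For PCE against TCE (0) there were 1 with covariates, 33 by DESeq2 and 0 to 65 without 1 library, the most without TCE vehicle library 2. With all libraries thinned to 30932385 counts, edgeR called 3 genes for both low doses, Fdx2 and Scand1 among them. In the thinned libraries 623 were called for 6 mmol/kg against low doses. No called value reversed. The acute phase median at 0.67 mmol/kg turned from 0.77 to -0.15 with both vehicle groups as 1. Of values for single genes and lists under an alternative, 1904 kept direction and side of the threshold, 102 lost a call, 71 gained one and 32, none of them called, changed sign or came to 0.00. The causes were not tested.

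Correlations of deviations from group means did not settle whether replicate numbers pair the libraries. Same-numbered libraries of vehicle and 0.22 mmol/kg correlated at 0.325, 0.456 and -0.653. Those of vehicle and 0.67 mmol/kg correlated at 0.095 and 0.59, and those of 0.22 and 0.67 mmol/kg at 0.585 and 0.366. Differently numbered libraries ran from -0.796 to 0.769. Deviations within a group of 2 or 3 libraries depend on each other. With the number as a block, edgeR called 0 genes at low doses, 0 at 0.22 mmol/kg, 2 at 0.67 mmol/kg, 1 between the low doses, 518 at 6 mmol/kg against low doses and 0 for PCE against TCE.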

Other observations

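Further lists were measured at the low doses, and Fdx2 was the 1 gene in them that edgeR or DESeq2 called. At the nominal level (p below 0.05 without adjustment) 4.54% of all genes were lower and 2.21% higher. Of 70 respiratory chain genes 3 were lower at that level, with a median difference of -0.10. Of 18 heat shock genes 4 were lower and the median was -0.27. Of 28 interferon response genes 24 had a fitted difference above 0, as did 48.2% of all genes, with a median of 0.21 and 2 at the nominal level, and 1 lay above all vehicle libraries in every dosed library. Of 26 p53 targets 1 was lower, with a median of 0.0. Of 28 iron-sulfur assembly and ferredoxin genes Fdx2 fell and the median was -0.12.

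Clec4f, a receptor of Kupffer cells, was at 48.4, 107.4 and 28.8 CPM with vehicle, at 31.1, 90.0 and 88.2 CPM at 0.22 mmol/kg and at 72.0 and 135.3 CPM at 0.67 mmol/kg. Adgre1, the macrophage marker F4/80, was at 2.09 to 3.27 CPM with vehicle and at 5.53 and 5.78 CPM at 0.67 mmol/kg (1.00 ± 0.44, edgeR adjusted p = 0.626).

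Sums over markers of most other cell types overlapped between vehicle and each low dose. Those that did not, besides hepatocyte and neutrophil sums at 0.67 mmol/kg, were 9 muscle genes, at 6.21 to 10.3 CPM with vehicle and 11.6 to 24.9 CPM at 0.22 mmol/kg, and 12 acinar genes, at 58.8 to 60.6 CPM with vehicle and 41.0 to 52.9 CPM at 0.67 mmol/kg. Endothelial genes summed to 153.7 to 320.1 CPM with vehicle and 162.7 to 306.3 CPM at low doses, and stellate cell genes to 87.3 to 156.1 CPM and 90.3 to 190.0 CPM.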
